A study of Mus musculus with 27 samples.

Results

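Nfib and 3 genes that lie close to it on mouse chromosome 4, Lurap1l, Mpdz and Zdhhc21, were followed across 27 Affymetrix arrays, together with Nfia and Nfix, paralogues of Nfib that were taken for contrast. These 6 genes are 6 of 19937 genes measured. The 4 neighbours were chosen by their measured levels, which stood high together in 2 of 3 tumors grown from line 31, so their levels in line 31 tumors describe that choice and were given no test. The 9 tumors of the other lines served as the level against which the 4 neighbours stood high, so their values there are a description too, and tests on tumors are given for the paralogues alone. The cell arrays did not enter the choice.

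The arrays were 1 each for 3 tumors of line 31 and 3 tumors of line 59, both labelled p53 mutant, 3 tumors of line 1 and 3 tumors of line 123, both labelled WT, 3 pieces of subcutaneous tissue (SubQ), 10 lines of immortalized neural stem cells (NSCs) grown in culture, and 2 normal NSC cultures. Of the lines in culture, 6 were labelled p53 mutant (lines 3, 28, 31, 59, 95 and 116) and 4 WT (lines 119, 120, 123 and 331), where p53 is the tumor suppressor encoded by Trp53, which was not analysed here. The labels give the severe combined immunodeficient (SCID) strain CB17/ICR-Prkdcscid/IcrCrl as host background for every sample, and WT for the NSC and SubQ samples. Ages, the p53 allele and the way the lines were immortalized were not given in the sources used here. Each line stands for itself, with 1 array in culture, and the tumors are labelled as biological replicates with nothing said of separate animals, so p-values measure the spread between these arrays.

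Nuclear factor I (NFI) proteins, encoded by Nfia, Nfib, Nfic and Nfix, bind DNA as dimers at a palindrome and act as activators or repressors. In the developing mouse forebrain, Nfia, Nfib and Nfix help radial glia leave self-renewal and make glia. Mpdz encodes a scaffold with many PDZ domains found at tight junctions, Zdhhc21 a palmitoyltransferase that attaches fatty acids to proteins and whose loss alters the coat of mice, and Lurap1l a relative of the leucine-rich adaptor Lurap1.

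RefSeq promoter sequences (build GRCm38.p6, 250 bases before to 50 bases after a gene's start) were found for 4 of the 6 genes, with 7 promoters in all. The start regions of the raised neighbours Lurap1l and Zdhhc21 and of Nfia, the paralogue that shares their chromosome but not their pattern, are shown to let their composition be compared. Lurap1l starts on the plus strand (chr4:80910436-80910735), Zdhhc21 on the minus strand (chr4:82859624-82859923) and Nfia on the plus strand (chr4:97581693-97581992). Capitals mark a CCAAT box (CCAAT, or ATTGG where it lies on the other strand) and a GC box (GGGCGG).
Lurap1l: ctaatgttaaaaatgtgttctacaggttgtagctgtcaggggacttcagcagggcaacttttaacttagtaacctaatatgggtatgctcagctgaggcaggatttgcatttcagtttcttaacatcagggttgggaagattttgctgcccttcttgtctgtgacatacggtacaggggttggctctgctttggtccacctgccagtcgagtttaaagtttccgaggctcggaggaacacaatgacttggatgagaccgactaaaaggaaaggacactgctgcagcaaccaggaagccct
Zdhhc21: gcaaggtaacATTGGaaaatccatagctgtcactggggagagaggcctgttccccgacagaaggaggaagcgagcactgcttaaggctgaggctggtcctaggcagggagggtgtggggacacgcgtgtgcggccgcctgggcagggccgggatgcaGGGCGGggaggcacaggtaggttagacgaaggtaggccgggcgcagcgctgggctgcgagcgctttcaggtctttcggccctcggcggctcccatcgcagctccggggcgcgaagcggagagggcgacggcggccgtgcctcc
Nfia: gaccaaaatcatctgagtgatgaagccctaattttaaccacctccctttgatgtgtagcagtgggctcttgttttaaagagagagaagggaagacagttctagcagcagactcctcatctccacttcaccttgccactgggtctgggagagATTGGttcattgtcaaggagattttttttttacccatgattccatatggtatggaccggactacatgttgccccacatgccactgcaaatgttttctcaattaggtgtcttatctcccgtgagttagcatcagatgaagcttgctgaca
The Zdhhc21 region was rich in G and C (67.7%), against 47.0% in that of Lurap1l and 44.7% in that of Nfia, with a median of 52.7% over 32851 promoters. It held a CCAAT box on the other strand at position -240 from the start and a GC box at -93. The Nfia region held a CCAAT box on the other strand at -99, and the Lurap1l region held none of the letters searched. On either strand, CCAAT occurred in 37.4% of all promoters and GGGCGG in 35.7%. TATAAA (13.6% of promoters), the NFI arm TTGGCA (14.1%) and the full NFI palindrome, TTGGC and its reverse complement with 5 bases between (0.037%, or 12 promoters), occurred in none of the 3 regions printed.

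All levels are log2 expression values as the authors deposited them, so a difference of 1 is a doubling, and levels of different genes are not compared. The median over all probe sets was 7.02 to 7.08 in the lines, 7.03 to 7.07 in the NSCs, 5.47 to 5.57 in the tumors and 5.75 to 5.78 in SubQ. Cell and tissue arrays appear to have been normalized as separate sets and were tested apart. Markers checked the labels. In culture, line 31 had Sox2, a transcription factor of neural stem cells, at 8.94 and Nes, the stem cell filament nestin, at 9.78, against 9.56 to 9.80 and 9.78 to 9.79 in the NSCs. Fabp7, the lipid-binding protein of radial glia, was at 5.68 in line 31, below the 25th percentile of genes in the lines (6.17), against 13.15 in both NSC arrays. In line 31 tumors Sox2 lay between 3.99 and 5.68, against 4.06 to 7.66 in the 9 other tumors.

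The 4 neighbours were high in line 31 tumors 1 and 2 and not in tumor 3. Nfib had 10.84, 10.29 and 8.58 in line 31 tumors 1, 2 and 3, against 7.53 to 9.17 (median 8.74) in the 9 other tumors. Zdhhc21 had 9.96, 9.14 and 7.62 in line 31 tumors, against 7.18 to 7.62 (median 7.36). For both genes the first pair of tumors lay above all 9 others and the third lay inside or at the edge of their range. Lurap1l had 8.67, 8.62 and 5.98 in line 31 tumors, against 5.22 to 7.43 (median 6.73) in the other tumors. Mpdz had 8.71, 8.66 and 6.70, against 6.84 to 8.56 (median 7.16). Tumor 3 thus had the lowest Mpdz level of the 12 tumors, while its Lurap1l level lay within the range of the other lines.

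Measured from the mean of the 9 other tumors, tumor 1 of line 31 stood 4.93-fold higher for Nfib, 4.37-fold for Lurap1l, 2.56-fold for Mpdz and 6.10-fold for Zdhhc21. In tumor 2 the same folds were 3.37, 4.23, 2.47 and 3.47, and in tumor 3 they were 1.03, 0.680, 0.637 and 1.21. When each tumor was set against the 9 tumors of the other lines, the median of the 4 log2 differences was 2.21, 1.77 and -0.26 in line 31 tumors 1, 2 and 3. It was -1.09 to 0.32 in the 9 other tumors, whose comparison level includes the high line 31 tumors, which lowers their differences. A second probe set for Nfib gave 10.15, 10.13 and 7.74 in line 31 tumors, against 6.91 to 8.92 in the others. Levels above all 9 other tumors in tumors 1 and 2 but not in tumor 3 were found in 479 genes, 2.4% of all genes. The rule used this pattern for the 4 members, and nothing is read from their count.

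The paralogues did not follow this pattern. Nfia had 6.08, 6.41 and 6.36 in line 31 tumors, against 6.23 to 8.94 (median 6.69) in the 9 other tumors, with tumor 1 below all of them. Nfix had 8.56, 10.02 and 8.96, against 7.61 to 10.39 (median 9.5), with every line 31 tumor inside the range of the others. Nfic, the remaining family member, had 6.81, 7.42 and 6.49, against 6.23 to 7.03 (median 6.84), and tumor 2 stood above the others. Nfia lies on chromosome 4 as well, outside the stretch of raised genes described below, and Nfix lies on chromosome 8. From the mean of the 9 other tumors, Nfia differed by -1.05, -0.72 and -0.78 in line 31 tumors 1, 2 and 3. The block of chromosome 4 genes that holds Nfia, from Plaa to Usp24, had medians of -0.34, -0.37 and -0.37 in the same tumors. Whether Nfia moved with these neighbours was not tested.

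**Figure D1:**
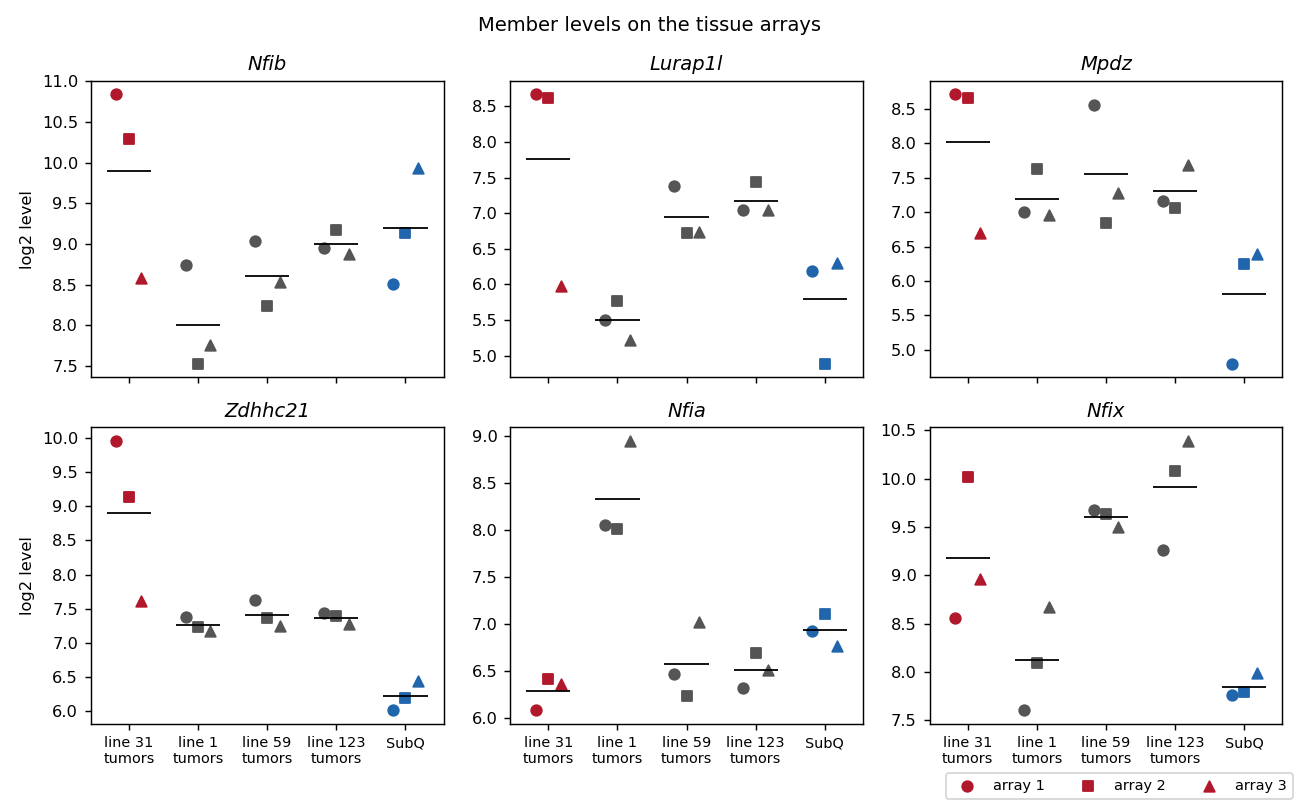
Log2 level (vertical axis) of the 6 genes on the tissue arrays, with tumors of line 31 (red), of lines 1, 59 and 123 (grey) and SubQ (blue) along the horizontal axis; each point is 1 array and each line a group mean. Arrays 1 and 2 of line 31 stand above the other tumors for Nfib, Lurap1l, Mpdz and Zdhhc21, narrowly for Mpdz (8.66 against 8.56), and array 3 does not.

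Tumors hold host cells besides grafted cells, and in such bulk samples fewer cells of a type and less RNA per cell cannot be told apart. Marker lists were therefore set beside the values of line 31 tumors 1, 2 and 3. Levels of a list were summed on the linear scale and the sum is given as log2, so the brightest genes weigh most. The sum of 7 macrophage genes was 13.05, 13.13 and 12.54, against 11.89 to 13.14 in the 9 other tumors. That of 7 fibroblast genes was 12.25, 12.14 and 12.72, against 11.29 to 13.10, and that of 6 endothelial genes 9.21, 8.96 and 10.06, against 8.95 to 11.07. Tumor 3 was the highest of the 3 line 31 tumors for fibroblast and endothelial genes, but within the range of the other tumors. Of 5 mural genes the sum was 10.53, 11.66 and 9.37, against 10.11 to 12.45, and of 6 muscle genes 9.69, 9.32 and 8.39, against 8.23 to 11.34. Of 5 keratinocyte genes it was 9.30, 9.07 and 7.5, against 7.21 to 10.27, and of 4 measured adipocyte genes 8.25, 7.60 and 7.69, against 7.41 to 11.39. Mural, muscle and keratinocyte sums were thus lower in tumor 3 than in tumors 1 and 2, and the mural sum was below all other tumors. The 6 neural stem cell genes summed to 11.69, 11.94 and 11.55, against 11.78 to 12.61. The 6 astrocyte genes summed to 9.58, 9.44 and 9.32, against 10.08 to 11.22, with all 3 line 31 tumors below every other tumor. Sparcl1, the brightest astrocyte gene, weighs most in that sum. The mean log2 level of the 6 astrocyte genes was 5.885, 5.851 and 5.602, against 5.816 to 6.268, with tumors 1 and 2 inside the range. In line 31 tumors 2 neural stem cell and 2 astrocyte genes, 1 adipocyte gene and 1 keratinocyte gene averaged below 4.75, the 25th percentile of gene levels in the 12 tumors. The part of these cell types in the levels of the 4 neighbours was not tested. Across all genes tumors 1 and 2 correlated at r = 0.97, tumors 1 and 3 at 0.96 and tumors 2 and 3 at 0.94.

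The stretch around Nfib was examined over the 15 measured genes on each side of it in RefSeq order, which include 3 of the members and 27 other genes. Of these 27 genes, 14 lay above all 9 other tumors in line 31 tumors 1 and 2 but not in tumor 3. It was found in 11 of 15 genes above the median tumor level, where 3.14% of all such genes showed it, and in 3 of 12 genes at or below that level, where 1.67% of all such genes did. The difference between these classes was not tested. The 15 better expressed neighbours had median log2 differences of 1.03, 0.84 and 0.04 in tumors 1, 2 and 3, against -0.06, 0.01 and -0.06 for all genes above the median level.

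Among the neighbours with large differences was 2310067E19Rik, which overlaps Nfib in the annotation, so that the 2 signals may not be separate (2.40, 1.86 and -0.39 in tumors 1, 2 and 3). Ttc39b, which encodes a tetratricopeptide repeat protein, had 1.93, 1.80 and 0.14. Kdm4c, a histone H3 lysine demethylase, had 1.07, 0.76 and 0.17, and Snapc3, a subunit of the complex that activates small nuclear RNA genes, had 1.28, 0.81 and 0.19. Psip1, a chromatin-tethering coactivator, stood at 0.84, 0.53 and 0.04, and Rraga, a GTPase of amino acid signalling to mTORC1, at 1.18, 0.64 and 0.10. In each of these genes tumors 1 and 2 were above the other lines and tumor 3 was near their mean, or below it for 2310067E19Rik. Dmac1 was the exception that stood above all 9 other tumors in all 3 line 31 tumors (1.03, 0.93 and 0.54). Just inside the pattern were Frmd3 and Cntln, whose lower value of tumors 1 and 2 exceeded the highest other tumor by 0.01 and 0.02, and just outside were Haus6 (-0.04) and Rasef (-0.17). By the same measure Zdhhc21 had a margin of 1.52, Lurap1l 1.19, Nfib 1.12 and Mpdz 0.10.

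**Figure D2:**
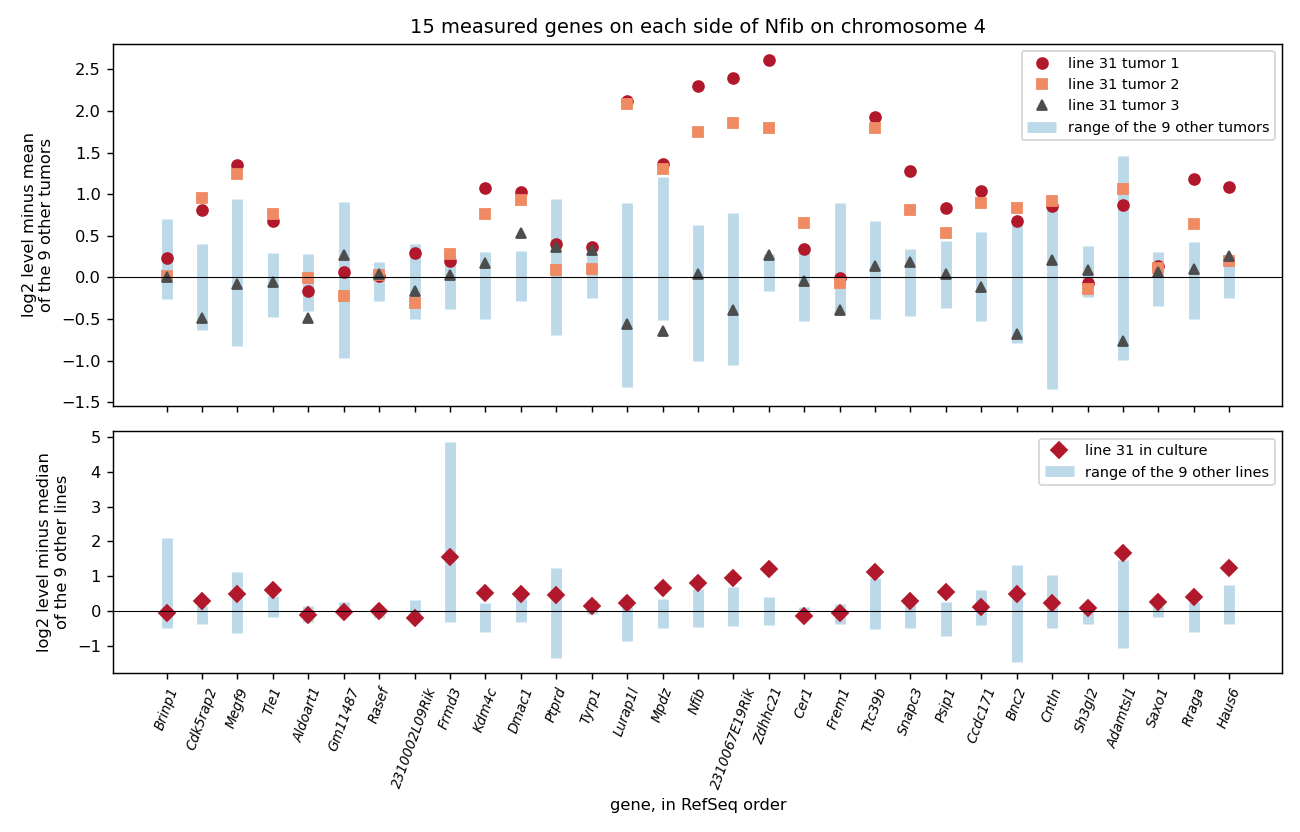
Log2 difference (vertical axes) of 31 genes in RefSeq order (horizontal axis), for line 31 tumors against the mean of the 9 other tumors (top) and for line 31 in culture against the median of the 9 other lines (bottom); bars span the other tumors or lines. From Lurap1l to Zdhhc21 tumors 1 and 2 differ by 1.30 to 2.61, and tumor 3 by -0.65 to 0.27.

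The 598 chromosome 4 genes above the median level were cut into 24 blocks in gene order, of 25 genes each and 23 in the last. The 4 blocks from Xpa to Caap1, which hold Nfib and were singled out after their values were seen, had medians of 0.68 to 0.74 in tumor 1, 0.40 to 0.78 in tumor 2 and -0.13 to -0.01 in tumor 3. In the 20 other blocks the medians were -0.38 to 0.29, -0.37 to 0.20 and -0.37 to 0.26. Of the 100 genes from Xpa to Caap1, 43 (43.0%) were above all 9 other tumors in tumors 1 and 2 and not in tumor 3, against 9 of 498 genes (1.81%) elsewhere on the chromosome. The 43 include the 4 members, which were chosen by this pattern, and without them it was found in 39 of 96 genes (40.6%). The block that follows Caap1, from Plaa to Usp24, holds Nfia and was low in all 3 line 31 tumors, with medians of -0.34, -0.37 and -0.37.

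**Figure D3:**
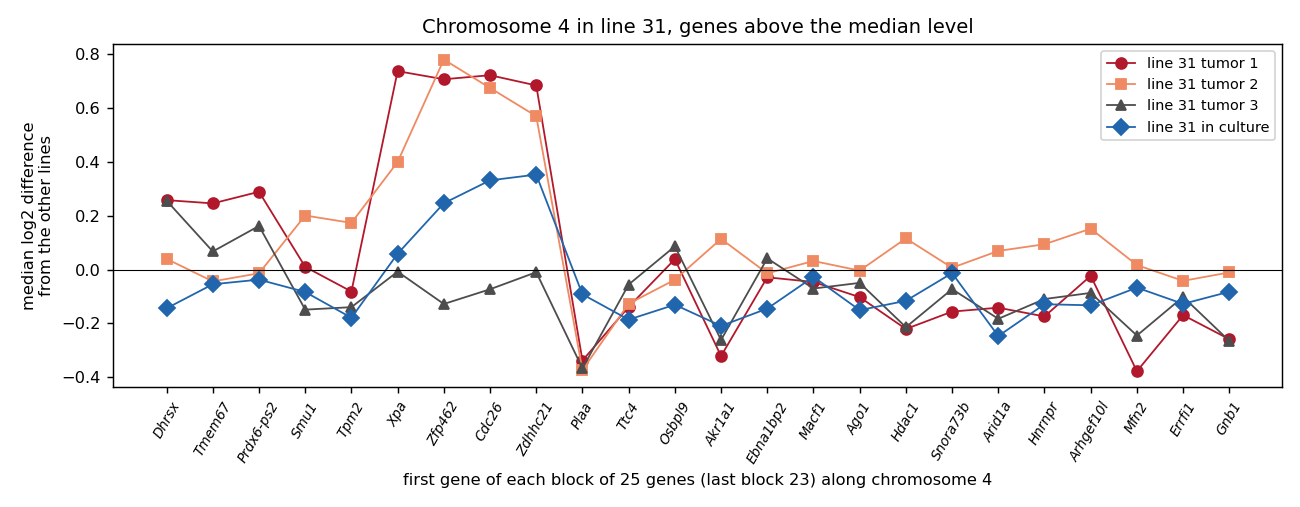
Median log2 difference (vertical axis) of blocks of chromosome 4 genes in order (horizontal axis), for the 3 line 31 tumors against the mean of the 9 other tumors and for line 31 in culture against the median of the 9 other lines. Tumors 1 and 2 are raised over 4 neighbouring blocks, by 0.40 to 0.78, the culture by 0.06 to 0.35 while tumor 3 lies at -0.13 to -0.01.

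Line 31 in culture was 1 array that the choice of the genes had not used. Nfib was at 11.53 in line 31, against 10.26 to 11.35 (median 10.72) in the 9 other lines and 11.17 and 11.08 in the NSCs. Zdhhc21 was at 10.30, against 8.69 to 9.5 (median 9.10) in the other lines and 9.99 and 9.98 in the NSCs. Mpdz was at 10.34, against 9.19 to 10.01 (median 9.67) in the other lines and 9.01 and 8.88 in the NSCs. Line 31 had the highest level of all 12 cell arrays for these 3 genes. Lurap1l was at 9.58, second to line 123, against 8.48 to 9.68 (median 9.34) in the other lines and 6.63 and 6.67 in the NSCs. Nfia was at 7.47, above line 28 alone, against 7.29 to 9.64 (median 8.49) in the other lines and 11.25 and 11.13 in the NSCs. Nfix at 11.76 ranked 5 of 10, against 11.57 to 12.33 (median 11.70) in the other lines and 11.30 and 11.17 in the NSCs.

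The fold of line 31 over the median of the other lines was 1.74 for Nfib, 1.18 for Lurap1l, 1.59 for Mpdz and 2.29 for Zdhhc21. With 1 array for the line these differences have no replicate check. With each line set against the median of the 9 others, the median of the 4 log2 differences was 0.74 in line 31, against -0.31 to 0.23 in the 9 other lines. Line 31 was the highest of the 10 lines in 3 of the 4 genes, and in 6.65% of all genes. Of the 27 other neighbours it was highest in 12, and in 11 of the 15 above the median level, where it was highest in 7.99% of all such genes. Adamtsl1, which encodes a protein related to matrix proteases, had a difference of 1.68 and Ttc39b of 1.13. From Xpa to Caap1 line 31 was highest in 38 of 100 genes (38.0%), against 12 of 498 (2.41%) elsewhere on chromosome 4. Without the 4 members it was highest in 35 of 96 genes (36.5%) of that stretch. Over whole chromosomes this share ranged from 1.41% on chromosome 6 to 20.1% on chromosome 16, with 8.36% on chromosome 4, for genes above the median level. The median difference of the culture was 0.06 in the block that starts at Xpa, where line 31 was highest in 6 of 25 genes, and 0.25 to 0.35 in the next 3 blocks, where it was highest in 10 or 11 of 25.

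**Figure D4:**
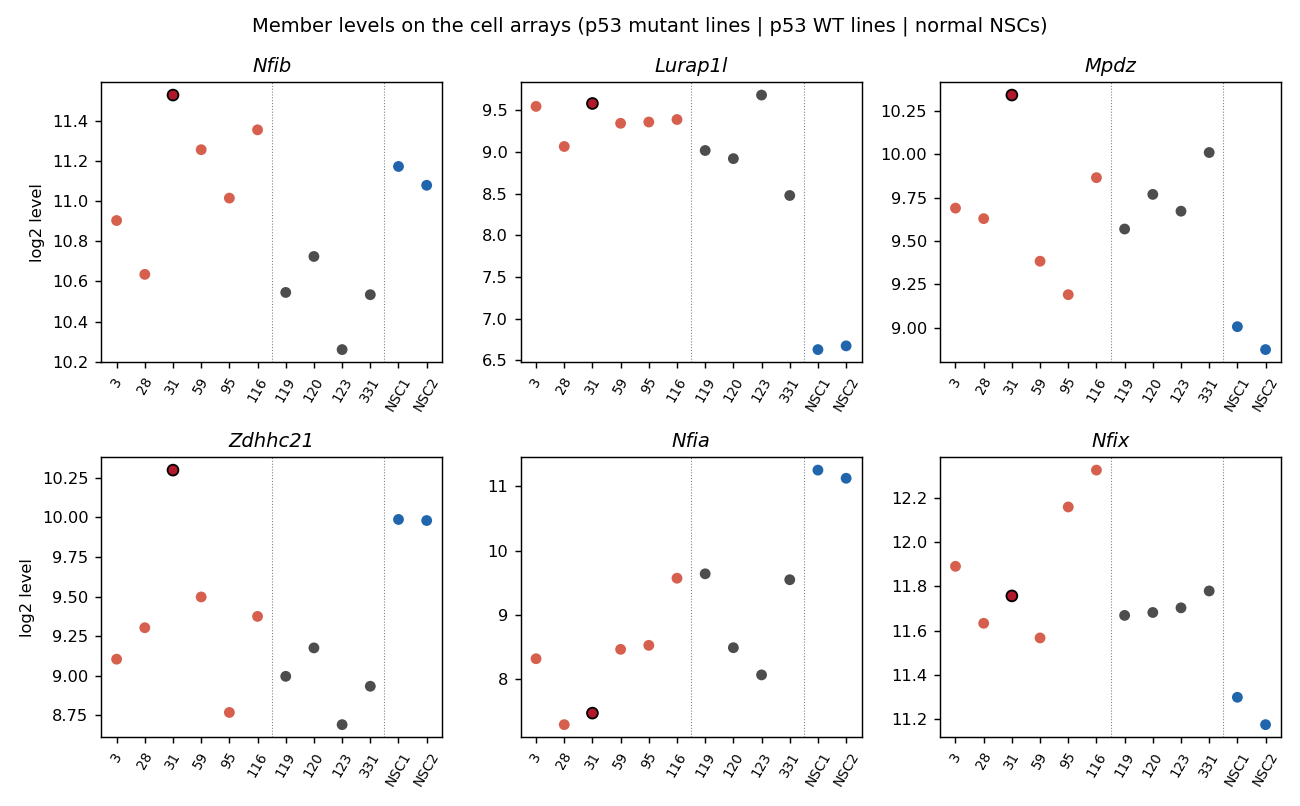
Log2 level (vertical axis) of the 6 genes on the 12 cell arrays, 1 point per array, with p53 mutant lines (red), p53 WT lines (grey) and NSCs (blue) along the horizontal axis. Line 31, outlined, is the highest point for Nfib, Mpdz and Zdhhc21 and is near the bottom for Nfia.

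Tumors and cultures were set side by side after joint quantile normalization of the arrays, as a description, since the deposited sets could not be compared directly. Line 31 tumors 1, 2 and 3 minus line 31 in culture gave 0.87, 0.31 and -1.33 for Nfib, and 1.36, 0.66 and -0.92 for Zdhhc21. Lurap1l gave 0.84, 0.85 and -1.84, and Mpdz 0.13, 0.13 and -1.83. On this scale tumors 1 and 2 were at or above the culture for all 4 genes and tumor 3 was below it for all 4. Line 59 tumors minus their culture ranged from -1.38 to 0.67 over the 4 genes and line 123 tumors from -0.97 to 0.68. Line 123 tumors 1, 2 and 3 were all above their culture for Nfib (0.33, 0.68 and 0.27) and Zdhhc21 (0.43, 0.51 and 0.21). All were below it for Lurap1l and Mpdz. Nfia gave 0.23, 0.42 and 0.52 and Nfix -1.52, -0.12 and -1.20 in line 31, without the split between the third tumor and the other two.

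The comparison of the 10 lines with the 2 NSC cultures tested the genes on cell arrays, of which line 31 is 1. Of the 6 genes 4 were called at a limma adjusted p under 0.05, 3 higher and 1 lower in the lines, where 15% of all genes were called (6.79% higher and 8.22% lower). Lurap1l averaged 9.24 ± 0.37 (SD, n = 10) in the lines and 6.65 ± 0.03 (n = 2) in NSCs, a log2 difference of 2.58 ± 0.25 (SE, limma adjusted p = 7.9e-06). Nfia averaged 8.54 ± 0.83 in the lines and 11.19 ± 0.09 in NSCs (-2.65 ± 0.55, limma adjusted p = 0.0046). In Lurap1l, Nfia, Mpdz, Nfix and Nfic every line lay on the same side of both NSC arrays, as it did in 21.3% of all genes. Mpdz rose by 0.77 ± 0.22 (limma adjusted p = 0.029), and Nfix by 0.58 ± 0.17 (limma adjusted p = 0.036). Nfib differed by -0.25 ± 0.27 (limma adjusted p = 0.66) and Zdhhc21 by -0.77 ± 0.30 (limma adjusted p = 0.12). Nfic averaged 9.30 ± 0.21 in the lines and 8.29 ± 0.02 in NSCs (1.01 ± 0.15, limma adjusted p = 0.00039). In the NFI family, Nfia was thus lower in the lines and Nfix and Nfic higher, and no difference was called for Nfib.

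Without either NSC array the calls of Mpdz, Nfia and Nfix ended (limma adjusted p = 0.15 and 0.25 for Mpdz, 0.071 and 0.059 for Nfia, 0.16 and 0.29 for Nfix), and that of Nfix also without line 3 (0.055). Without line 31, Zdhhc21 was called lower in the lines (-0.89, limma adjusted p = 0.0068), and with the 4 WT lines alone Zdhhc21 (-1.03, 0.0045) and Nfib (-0.61, 0.038) were both called.

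Genes linked to these families were counted from lists chosen with earlier results of these data known. Of 15 neural genes that NFI factors are known to act on or that mark glia, 8 fell in the lines and none rose, where 8.22% of all genes fell (median log2 difference -0.78, against -0.01 over all genes). The list shares genes with the neural stem cell and astrocyte markers, of which 3 of 6 and 5 of 6 fell. Mural markers rose in 2 of 5 genes (Acta2 by 5.56 and Pdgfrb by 3.29) and fibroblast markers in 2 of 7 (Col1a2 by 3.14 and Col1a1 by 1.73), and their part in these counts was not tested. Fabp7 fell by 6.88, the matricellular gene Sparcl1 fell by 4.78, the glycolytic gene Aldoc fell by 4.26 and the glutamate transporter gene Slc1a3 fell by 3.41. Of 14 measured tight junction and polarity partners of Mpdz, 2 rose and 2 fell (median 0.16), among them the atypical protein kinases Prkci (0.45) and Prkcz (-0.54). Of 24 palmitoyltransferases of the DHHC family, Zdhhc1 rose (0.47) and Zdhhc14 fell (-0.96). Of Lurap1 and its partners of the MRCK kinase pathway, 5 genes in all, Myo18a fell (-0.53). Of the 27 other neighbours of Nfib, 2 rose (Bnc2, a zinc finger gene, by 2.70, and Ttc39b by 1.30) and 3 fell (median -0.03), the synaptic gene Sh3gl2 (-2.18), Megf9 (-1.11) and the centrosomal gene Cdk5rap2 (-0.56).

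Between the 6 p53 mutant and the 4 p53 WT lines none of the 6 genes was called by limma, where 8 genes (0.0401%) were called among all. At an unadjusted p under 0.05 there was 1 member, Nfib, among 1864 genes. Nfib averaged 11.11 ± 0.33 (SD, n = 6) in mutant lines and 10.52 ± 0.19 (n = 4) in WT lines (0.60 ± 0.16 SE, limma adjusted p = 0.29), and the groups overlapped. Line 31 belongs to the mutant lines, and without it the difference was 0.52 (limma adjusted p = 0.44). The other differences were 0.36 ± 0.19 for Lurap1l, -0.07 ± 0.19 for Mpdz, 0.44 ± 0.23 for Zdhhc21, -0.66 ± 0.43 for Nfia and 0.18 ± 0.14 for Nfix. No listed gene and none of the 27 other neighbours was called either.

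The 9 tumors of lines 1, 59 and 123 were compared among each other by line. Nfia and Nfix differed between the lines (limma moderated F test, adjusted p = 0.0045 and 0.013), where 5.86% of all genes were called, and Nfic did not pass (0.87). In Nfia and Nfix line 1 stood apart from lines 59 and 123. Nfia averaged 8.33 ± 0.53 (SD, n = 3 each) in line 1 tumors, 6.57 ± 0.40 in line 59 and 6.50 ± 0.19 in line 123 tumors. Nfix averaged 8.12 ± 0.53, 9.60 ± 0.09 and 9.91 ± 0.59 in tumors of lines 1, 59 and 123. For neither gene did line 1 tumors overlap with those of line 59 or line 123. How many of all genes do not overlap between these lines was not counted, so nothing is read from this. Line 1 minus line 59 was 1.76 ± 0.27 (SE) for Nfia (limma adjusted p = 0.005), and line 1 minus line 123 was 1.83 ± 0.27 (0.0047). For Nfix these differences were -1.48 ± 0.30 (limma adjusted p = 0.021) and -1.78 ± 0.30 (0.01). These pairs of lines had 4.66% and 4.44% of all genes called, and line 59 against line 123 had 0.838% and neither paralogue.

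The 4 neighbours in these tumors are described without a test. Lurap1l averaged 5.5 ± 0.27 in line 1 tumors, 6.95 ± 0.38 in line 59 and 7.17 ± 0.22 in line 123 tumors. Its levels in line 1 did not overlap with those in lines 59 and 123, and the share of all such genes was not counted. Nfib averaged 8.01 ± 0.64 in line 1 tumors, 8.60 ± 0.41 in line 59 and 9.0 ± 0.15 in line 123 tumors. Mpdz averaged 7.20 ± 0.38, 7.56 ± 0.89 and 7.30 ± 0.34 in the tumors of lines 1, 59 and 123, and Zdhhc21 7.26 ± 0.10, 7.41 ± 0.20 and 7.37 ± 0.09. The Zdhhc21 levels of all 9 tumors lay between 7.18 and 7.62. Among the listed genes, the F test called Sparcl1 of the 15 NFI-linked genes (largest difference 0.98), Prkci and the claudin gene Cldn1 of the 14 polarity genes (0.70 and 3.43), Zdhhc2 of the 24 palmitoyltransferases (1.43) and Cdc42bpa, an MRCK kinase, of the 5 Lurap1 genes (0.83). Of the 27 other neighbours it called 4, which were Bnc2 (1.18), 2310067E19Rik (1.05), Megf9 (1.03) and Ccdc171 (0.87).

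Against SubQ tissue 75.7% of all genes were called in the same 9 tumors (30.8% higher and 44.9% lower), with a median difference of -0.28 over all genes. Nfix averaged 9.21 ± 0.92 (SD, n = 9) in tumors and 7.85 ± 0.12 (n = 3) in SubQ (1.36 ± 0.47 SE, limma adjusted p = 0.016), and line 1 tumors overlapped with SubQ. Nfia averaged 7.13 ± 0.96 in tumors and 6.93 ± 0.17 in SubQ (0.20 ± 0.49, limma adjusted p = 0.72). With quantile normalization Nfix turned to -0.36 (limma adjusted p = 0.52) and Nfia to -0.93 (0.10), and without SubQ 1 or 2 Nfix was not called (0.054 and 0.052). The SubQ arrays stood apart from the rest, with a spread over genes of 0.87 to 1.02, against 1.63 to 1.79 in tumors.

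Without a test, Mpdz averaged 7.35 ± 0.54 in tumors and 5.81 ± 0.88 in SubQ, and Zdhhc21 7.35 ± 0.14 in tumors and 6.22 ± 0.22 in SubQ. In both genes all 9 tumors lay above all 3 SubQ arrays. The share of all genes that do not overlap in this comparison was not counted, so nothing is read from this. Lurap1l averaged 6.54 ± 0.83 in tumors and 5.79 ± 0.79 in SubQ, and Nfib 8.54 ± 0.58 in tumors and 9.20 ± 0.71 in SubQ, where its 3 levels were 8.52, 9.14 and 9.93. For these 2 genes tumors and SubQ overlapped. The second probe set for Nfib gave 7.12, 7.86 and 8.26 in SubQ, and there the mean of the 9 tumors was the higher. The Nfib difference was -0.66 with the main probe set, -0.10 with the mean of probe sets and -2.39 with quantile normalization. Its direction thus depends on the probe set. Markers of host cell types moved in the same comparison, and their part in the members' levels was not tested. In tumors 7 of 7 macrophage, 4 of 7 fibroblast and 3 of 6 endothelial genes were higher, while 4 of 4 adipocyte, 4 of 6 muscle and 3 of 5 keratinocyte genes were lower, and 2 of 5 mural genes rose and 2 fell. Of the lists, 4 NFI-linked genes rose and 6 fell, 4 polarity genes rose and 5 fell, and 2 Lurap1 genes rose and 1 fell. Of the palmitoyltransferases 10 rose, a count that includes the chosen member Zdhhc21, and 7 fell. Of the 27 other neighbours 10 rose and 12 fell.

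The likeness of other genes to Nfib was ranked by Pearson's r over the 12 tumors, which share lines and, for Nfib, the 2 high arrays of line 31. One ranking took all 19936 other genes, and another 9516 variable genes without provisional symbols. Among all genes the one most like Nfib was 2310067E19Rik, which overlaps it (r = 0.96). Without provisional symbols, the 6 genes most like it were Stx17, a fusion protein of autophagosomes (r = 0.96), Hacd4, an enzyme of very long fatty acid synthesis (0.95), Vps13c, a lipid transfer protein (0.94), Atp10d, a lipid flippase (0.94), Adamts6, a matrix protease (0.93), and Plekha7, a protein of adherens junctions (0.93). Stx17 and Hacd4 lie on chromosome 4, and the others on chromosomes 9, 5, 13 and 7. Lurap1l (0.89) and Zdhhc21 (0.89) ranked 23 and 27 among the 9516 genes, Mpdz (0.69) ranked 379, and Nfia had r = -0.62. The neighbours were chosen for standing high together with Nfib in 2 of these tumors, which favours a high r. Nothing is therefore read from their ranks. Over the 9 other tumors, r with Nfib was 0.76 for Lurap1l, 0.68 for Zdhhc21 and 0.23 for Mpdz.

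Over the 12 cell arrays 2310067E19Rik again ranked first among all 19936 other genes (r = 0.95). Without provisional symbols, the 6 genes most like Nfib among 9572 were Slc16a4, of the monocarboxylate transporter family (r = 0.91), Phtf1os (0.87), Zfp931 (0.84), Lactb2 (0.84), Agpat5 (0.83) and Cers4, a ceramide synthase (0.81), and none of these 6 lies on chromosome 4. Zdhhc21 had r = 0.75 there, Lurap1l -0.13 and Mpdz -0.03. In culture, Nfib and Zdhhc21 thus varied together across lines, with r = 0.66 over the 9 lines without line 31, and Lurap1l and Mpdz did not follow them (0.25 and -0.27).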

How the data were processed

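RNA was labelled from 100 ng per sample and hybridized, per the labels. The deposited values are log2 levels per probe set; the submitters' processing notes name GCOS, Affymetrix Expression Console and RMA, without versions or the part each played. No source used here names the genome build of the probes. Values were used as the authors deposited them. Of 34760 probe sets, 21640 with 1 gene were kept (1321 had several and 11799 none listed). The probe set with the highest mean over 27 arrays stood for each of 19937 genes, 954 of which had several. Gene order came from RefSeq (GRCm38.p6), which placed 19915 genes, 1160 of them on chromosome 4.

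Groups came from the labels. Tests used limma 3.58.1 (linear model, empirical Bayes) under R 4.3.3, 2-sided, with Benjamini-Hochberg adjustment across the 19937 genes and calls under 0.05. Cell and tissue arrays were fitted apart. The fit was tested on simulated data. The 6 members, the marker and gene lists and the tests were chosen with earlier results of these data known. Named genes were the members, Nfic, 15 neighbours on each side of Nfib, the 6 genes most like Nfib in 2 sets and up to 4 called members of a list; boundary genes of blocks were chosen after their values were seen. Protein sequences were not used here. Python 3.11.15, numpy 2.4.6, pandas 2.3.3 and matplotlib 3.10.9 were used for the rest. The number of arrays limits the precision. Alternatives were the mean of probe sets, centring, quantile normalization, a level filter, trend and robust moderation, 1 fit of all 27 arrays, blocks, lines by genotype and each array left out.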

Additional observations from a re-analysis of the deposited data

Results flagged for a closer look

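Of 28 sets of levels checked for 1 array far from the rest, 2 held one, where chance gives about 1 in 20. Mpdz in line 59 tumor 1 was 8.56, far above the 8 others of the 9 tumors of lines 1, 59 and 123, with a gap of 0.51 of the whole range. Zdhhc21 in line 31 in culture was 10.30, with a gap of 0.50 of the range of the 10 lines.

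Line 1 tumors stood apart from those of lines 59 and 123 in Nfia and Nfix by the limma contrasts. Nfia in line 1 minus line 59 tumors was 1.76 and in line 1 minus line 123 tumors 1.83, and Nfix -1.48 and -1.78. Lurap1l had differences of -1.45 and -1.68, a description alone, as it was chosen with these tumors as its comparison level. No explanation was tested.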

How the results depend on the processing

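In line 31 tumors the median difference of the 4 neighbours was 1.29, with a sign that the choice of the genes fixes, and it was 0.83 to 2.06 with 1 tumor left out, lowest without line 31 tumor 1 and highest without tumor 3. In culture it was 0.69 to 0.77 with 1 other line left out, in alternatives chosen after seeing the data. Of lines against NSCs, 4 members were called by limma, 2 with all 27 arrays in 1 fit, 2 with the 6 mutant lines alone, and 1 to 5 with 1 array left out, 1 without either NSC array; genes called in all were 1416 and 1402 then, against 2992. On tumors the paralogues alone are followed. Against SubQ, Nfia was called in none of 20 alternatives (lowest limma adjusted p = 0.10). Nfix lost its call there under quantile normalization and without SubQ 1 or 2. Between tumor lines Nfia and Nfix were called in all 15 alternatives (highest limma adjusted p = 0.016 and 0.045). With 1 array left out, 14163 to 15082 genes in all were called against SubQ and 486 to 1186 between tumor lines. In mutant against WT lines 0 members were called throughout, and all genes called numbered 1 to 36. Nfix against SubQ reversed under quantile normalization (-0.36). Between tumor lines all genes called fell to 486 without line 1 tumor 3 and 673 without line 123 tumor 3, against 1169; with genes above the median level alone, 7136 genes were called against SubQ, from fewer genes tested. The causes were not tested.

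Replicate numbers did not pair the samples (r of deviations -0.28 to 0.12, median -0.02). With the replicate number as a block, only lines 3 and 28 share a number with an NSC array. That fit therefore compared these lines alone with the NSCs, by pairs that share nothing but a number. It cannot check the comparison of all lines, and no call is read from it (Zdhhc21 -0.78, Nfix 0.53). Against SubQ with this block Nfix was called (limma adjusted p = 0.021) and Nfia was not (0.73), where 14904 genes were called. Between tumor lines both Nfia (limma adjusted p = 0.0054) and Nfix (0.012) were called, where 871 genes were called. With tumor line as a random block Nfix was called against SubQ and Nfia was not, where 13763 genes were called. No signal over background was used, so levels near the bottom of the scale may understate differences.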
